A study of Mus musculus with 14 samples.

Results

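Molecular chaperones were followed here as 86 genes of the 55421 in the count table: the heat shock proteins of the HSP70, HSP90, HSP110 and small HSP families, the J-domain proteins of types A, B and C, the BAG co-chaperones and the subunits of the cytosolic and mitochondrial chaperonins. They were chosen by gene symbol and comprised 13 HSP70, 3 HSP90, 1 HSP110, 6 small HSP, 45 J-protein (4 type A, 13 type B, 28 type C), 6 BAG, 10 cytosolic chaperonin and 2 mitochondrial chaperonin genes. RNA had been sequenced from the brainstem of 7 mice, 2 to 3 months old at surgery, of the genotype TH-Cre;Slc6a2-eGFP/Rpl10a on a C57Bl/6 background. All animals of both groups carried Cre recombinase under the tyrosine hydroxylase (Th) promoter and the GFP-tagged ribosomal protein Rpl10a under that of the noradrenaline transporter gene Slc6a2. The locus coeruleus, the main noradrenergic nucleus of the brain, had been infused with P364S mutant human tau in 4 animals (labelled B, C, L and M) and with the fluorescent protein EYFP as control in another 3 (H, I and K). From every mouse came a library from total brainstem homogenate (pre-IP) and one from the RNA that came down with the tagged ribosomes (IP), 14 libraries in all. The series compares tau with EYFP in the IP. The pre-IP libraries give the same contrast in the tissue as a whole, and the level against which enrichment in the IP is measured.

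HSP70 proteins bind exposed hydrophobic stretches of unfolded clients in cycles of ATP hydrolysis. J proteins deliver the clients and start hydrolysis, while BAG and HSP110 proteins release the nucleotide. HSP90 acts later, on clients near their native state such as kinases and steroid receptors, and the ring-shaped TRiC (CCT) chaperonin encloses actin, tubulin and other proteins while they fold. Small HSPs hold aggregating proteins without ATP. In neurons this network is known for handling tau: HSP70 with its J proteins and BAG co-chaperones, and HSP90, all bind it.

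Libraries held 41843489 to 65664551 counts, and 3 counts corresponded to 0.0457 to 0.0717 counts per 1000000 (CPM). Levels below are scaled CPM, which are CPM with library sizes adjusted by TMM normalization. The human tau construct had 3527 to 47177 counts in the tau libraries, 2 to 18 in those of EYFP animals H and I, and 408 and 398 in the pre-IP and IP libraries of EYFP animal K. The libraries of tau animal M, labelled female, carried 10.9 CPM (pre-IP) and 22.1 CPM (IP) of 4 Y-linked genes summed. RNA integrity was 7.7 to 9, except 4.2 in the IP of EYFP animal I, and RNA concentrations were 0.1 to 2.8 ng/µL in the IP and 11.4 to 29.9 ng/µL in the pre-IP. None of the markers fixed for neurons, glia, vessels, ependyma or immediate early genes was at 0 in any library.

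The start-site regions of several members held the sequence elements through which chaperone genes are classically induced, and these are shown because the genes concerned turn up in the comparisons below. The heat shock element, bound by HSF1, is an array of alternating GAA and TTC units, and was searched as GAANNTTCNNGAA on both strands. The endoplasmic reticulum (ER) stress element, bound by ATF6 together with NF-Y, was searched as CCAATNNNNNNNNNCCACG on both strands. The windows were RefSeq promoter sequences of GRCm38.p6, from 250 bases before to 50 after a start site, and 70 members matched. A heat shock element match lay in 4 of these 70 members (5.71%) and in 0.662% of all 27025 genes with a window. An ER stress element match lay in 3 of the 70 (4.29%) and in 0.137% of all genes. The windows of the stress-inducible Hspa1a, Hspa1b, Dnajb1, Hspb1 and Bag3 were searched and held no heat shock element match. No window was available for Hsp90aa1, Hsp90ab1 or Hspa8. Matched bases are in capitals in the stretches below, each written 5′ to 3′ on the strand of its gene.
Hspd1, chr1:55088039-55088096, minus strand: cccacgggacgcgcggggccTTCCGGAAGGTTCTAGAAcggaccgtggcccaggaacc
Hspe1, chr1:55088039-55088096, plus strand: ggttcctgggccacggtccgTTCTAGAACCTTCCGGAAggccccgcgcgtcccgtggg
Dnajb6, chr5:29735832-29735884, plus strand: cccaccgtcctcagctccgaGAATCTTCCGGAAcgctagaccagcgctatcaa
Hspa5, chr2:34772005-34772063, plus strand: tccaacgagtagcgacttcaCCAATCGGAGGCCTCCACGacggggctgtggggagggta
Dnajc3, chr14:118937807-118937865, plus strand: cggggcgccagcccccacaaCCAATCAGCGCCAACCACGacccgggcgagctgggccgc
Hsp90b1, chr10:86705513-86705676, minus strand: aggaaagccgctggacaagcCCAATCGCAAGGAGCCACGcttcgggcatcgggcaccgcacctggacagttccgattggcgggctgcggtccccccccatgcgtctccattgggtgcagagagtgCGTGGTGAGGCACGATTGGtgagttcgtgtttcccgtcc
Hspd1 and Hspe1, which encode the 2 parts of the mitochondrial chaperonin, are transcribed away from each other and share the same stretch, where 2 overlapping matches of the heat shock element run together. For Hspd1 the stretch lies upstream only of a start further inside the gene (window chr1:55087883-55088182). The window of its outer start, chr1:55088194-55088493, had no match, and the stretch lies downstream of that start. The Hsp90b1 stretch held 2 ER stress element matches, on opposite strands. The remaining member with a heat shock element match, Hsph1, had it downstream of its start. A match describes letters in a window and no binding was measured.

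Which chaperone transcripts were enriched in the IP was asked by comparing the 7 IP with the 7 pre-IP libraries. No library came from an animal without the tagged ribosomes, so RNA carried into the IP unspecifically was not measured. Of the 80 members with enough counts to be tested, 29 were higher in the IP and 10 were lower (edgeR quasi-likelihood test, Benjamini-Hochberg adjusted p under 0.05 over 18792 genes), and 41 did not pass. The background over all genes tested was 16.3% higher and 14.7% lower, against 36.25% and 12.5% of the tested members. The median log2 change was 0.22 over the members and -0.004 over all genes. HSP90, the ER and mitochondrial HSP70s, both chaperonins and the HSP110-class exchange factors Hspa4 and Hspa4l were on the higher side, and every lower member but one was a J protein. Of the 29, 24 were higher in the IP of 7 of 7 animals, and 7 of the 10 were lower in all 7. The same libraries gave the calls, so these counts describe the called members and are no separate support. The matching share over all called genes was not computed. With the animal as a block, 41 members passed, the same 39 plus Dnaja2 and Dnajb6, both higher. In a bulk sample, a change in the share of RNA from a cell type and a change in RNA per cell cannot be told apart.

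**Figure D1:**
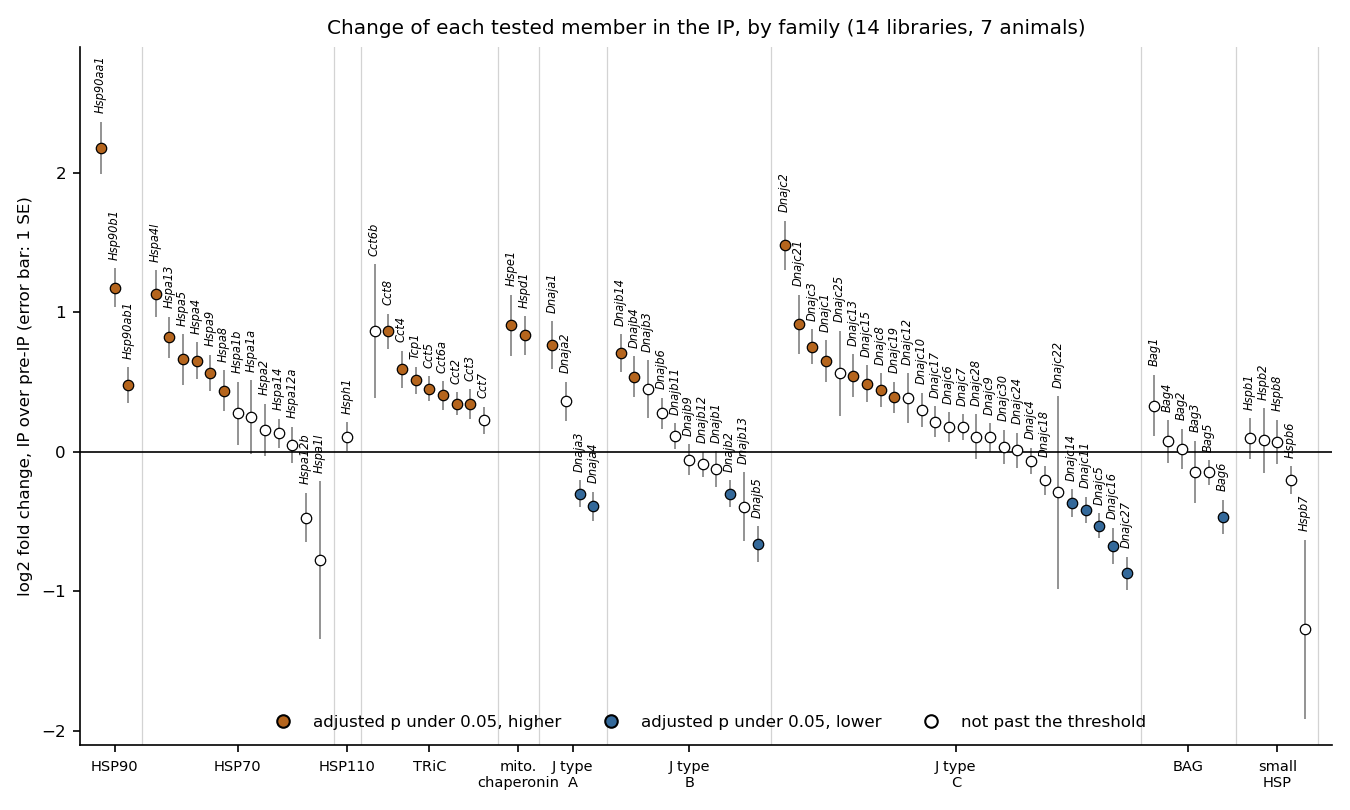
Log2 fold change of the 80 tested members, IP over pre-IP (vertical axis), grouped by family along the horizontal axis. Points are edgeR estimates from 14 libraries, error bars are 1 standard error, and fill marks adjusted p under 0.05. Hsp90aa1 stands highest at 2.18, the TRiC points all lie above 0, and the J proteins spread to both sides.

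Hsp90aa1, the stress-inducible cytosolic HSP90 at chr12:110690605-110702728 (GRCm38), had the highest enrichment among the members. Its scaled CPM in the pre-IP was 148, 230.2 and 186 in EYFP animals H, I and K, and 279.5, 247, 141 and 162 in tau animals B, C, L and M. In the IP it was 846, 1189 and 722 in the EYFP animals and 1027, 1074, 779 and 622 in the tau animals. The lowest IP library lay above the highest pre-IP library, and the change was 4.53-fold (log2 2.18 ± 0.19 SE, adjusted p 1.36e-05 by edgeR, n = 7 animals). The log2 difference within an animal was 1.88 to 2.52, with overlapping values in tau and EYFP animals.

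Hsp90b1, the ER member of the family (Grp94), was 2.26-fold higher in the IP (log2 1.18 ± 0.14). Its pre-IP levels were 51.9 to 90.1 scaled CPM. In the IP it averaged 168 ± 29.1 (SD, n = 3) in EYFP and 154 ± 28.1 (SD, n = 4) in tau animals, and the fractions again did not overlap. Exons of Hsp90b1 overlap 2 other annotated genes, one on either strand, and the library kit does not mark strand. The constitutive cytosolic Hsp90ab1 was the more abundant transcript and rose less, 1.39-fold (adjusted p 0.0106 by edgeR). Its libraries overlapped, from 648 to 1001 in the pre-IP and 847 to 1420 in the IP, and animal M alone was lower in its IP. Per kilobase of the deposited gene length, the mean level of Hsp90ab1 in EYFP pre-IP libraries was 267 scaled CPM and that of Hsp90aa1 was 47.8, whereas in EYFP IP libraries they were 414 and 234.

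**Figure D2:**
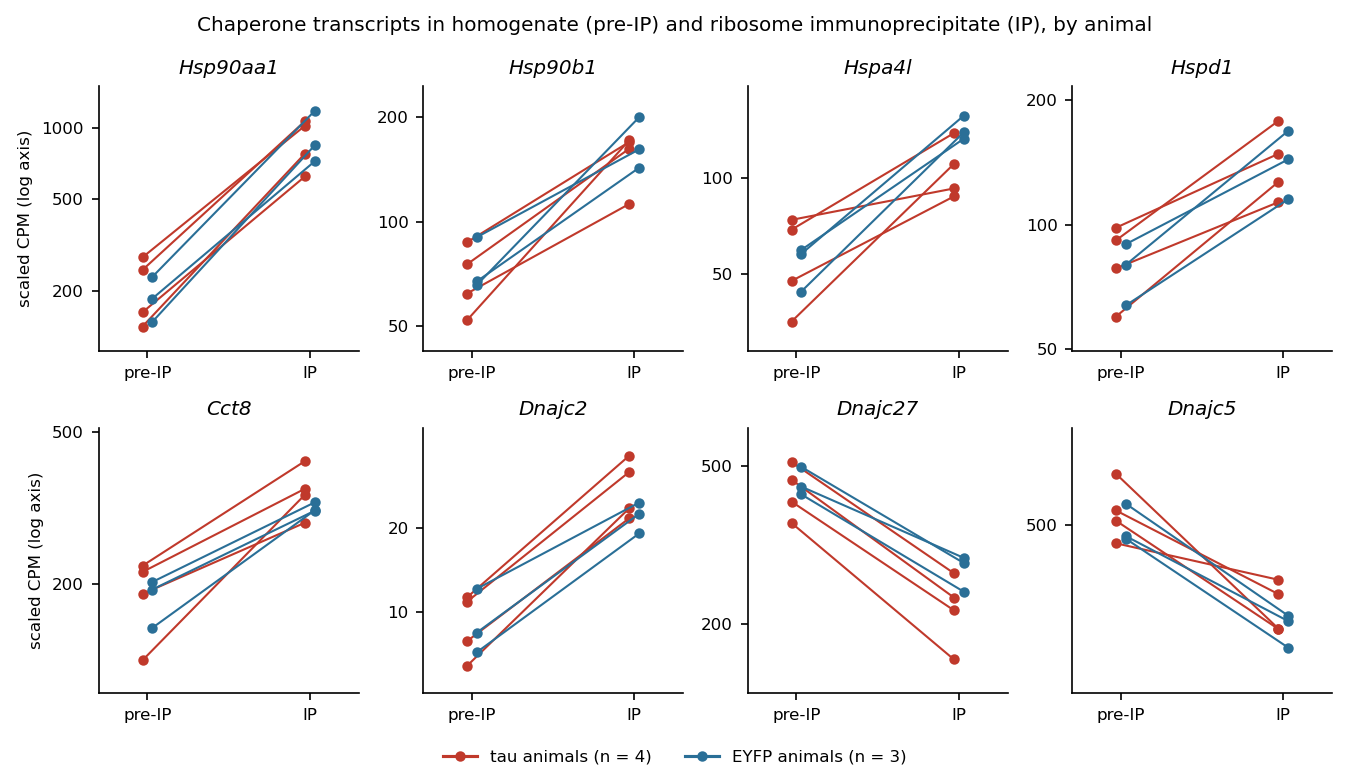
Scaled CPM (log axis) of 8 members in the pre-IP and IP library of each animal, joined by a line, with 4 tau animals in red and 3 EYFP animals in blue. All lines of the first 6 panels (Hsp90aa1 to Dnajc2) rise and all lines of Dnajc27 and Dnajc5 fall.

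Of the 13 HSP70 genes, 6 rose and none fell, beside 16.3% higher and 14.7% lower of all genes tested. Hspa4l, an exchange factor of the HSP110 class, rose 2.19-fold (log2 1.13 ± 0.17), with 35.6 to 73.9 scaled CPM in the pre-IP and 87.4 to 156 in the IP. Hspa13, a microsomal HSP70, rose 1.77-fold, with 9.97 to 17.1 scaled CPM in the pre-IP and 17.9 to 33.8 in the IP. Neither gene had overlapping groups, and both were higher in 7 of 7 animals.

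Hspa5 (BiP), the HSP70 of the ER lumen, was 122 to 183 scaled CPM in the EYFP and 95.9 to 179 in the tau pre-IP libraries. In the IP it was 209, 252 and 246 in animals H, I and K and 321, 240.1, 173 and 141 in B, C, L and M. The groups overlapped through tau animals L and M, and the rise was 1.58-fold (adjusted p 0.0104 by edgeR). Hspa9 (mortalin), the HSP70 of the mitochondrial matrix, rose 1.48-fold without overlap, with 91.2 to 144 scaled CPM in the pre-IP and 152 to 234 in the IP.

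Hspa8, the constitutive cytosolic Hsc70, had the highest mean level per kilobase of the members in the EYFP libraries, 283 scaled CPM in the pre-IP and 435 in the IP. In the tau IP it was level with Hsp90ab1, at 380.2 and 380.7. Its scaled CPM was 928 to 1679 in the pre-IP and 1383 to 1942 in the IP, so that the fractions overlapped. The rise of 1.35-fold had an adjusted p of 0.032 by edgeR. It no longer passed when animal C (0.05364), H (0.0824), I (0.104) or L (0.0514) was left out, each an edgeR adjusted p. The stress-inducible Hspa1a and Hspa1b did not pass, with log2 changes of 0.25 ± 0.26 and 0.28 ± 0.23, and levels of 1.31 to 3.95 and 1.57 to 4.16 scaled CPM over the 14 libraries. These are near-identical copies, so reads may have been lost or split between them. Hsph1, the HSP110 member, did not pass at log2 0.11 ± 0.10, with 205 to 302 scaled CPM in the pre-IP and 229 to 304 in the IP.

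The TRiC ring is built of 8 different subunits, and 7 of the 8 genes rose, beside 16.3% of all genes tested. The changes of the 8 ranged from 1.17-fold for Cct7, which did not pass (adjusted p 0.0837 by edgeR), to 1.82-fold for Cct8. Cct8 was 126 to 223 scaled CPM in the pre-IP and 289 to 419 in the IP, with no overlap. Tcp1, the alpha subunit, was 90.5 to 131 in the pre-IP and 146 to 178 in the IP, again apart, and rose 1.43-fold. The smallest subunit mean per kilobase in EYFP pre-IP libraries was 19.3 scaled CPM for Cct4 and the highest 89.8 for Cct5, and the same subunits were lowest and highest in the EYFP IP at 29.6 and 119.7. The order depended on the deposited gene lengths, 6778 bases for Cct7 and 2766 for Cct5. Without division by length, Cct7 was highest in the EYFP pre-IP, at a mean of 396 scaled CPM against 248 for Cct5. Cct6b, a variant subunit at 0.188 to 2.23 scaled CPM, did not pass.

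Both genes of the mitochondrial chaperonin rose. Hspd1, the large barrel-forming subunit, was 63.8, 80.0 and 89.7 scaled CPM in the EYFP pre-IP and 91.7, 98.4, 60.0 and 78.4 in the tau pre-IP. It was 115, 169 and 144 in the EYFP IP and 178, 149, 127 and 113 in the tau IP, a rise of 1.78-fold with no overlap between fractions. Hspe1, its lid, rose 1.88-fold, and its log2 difference within an animal ran from 0.24 in EYFP animal I to 2.00 in tau animal B. The first exons of this divergent pair overlap, so without strand a share of their reads cannot be assigned.

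The J proteins went both ways: of 41 tested, 11 rose (log2 0.39 to 1.48) and 9 fell (log2 -0.30 to -0.87). Beside them, 16.3% of all genes tested were higher and 14.7% lower. Dnajc2, which sits on the ribosome as a partner of HSP70 for nascent chains, rose 2.79-fold (log2 1.48 ± 0.18), with 6.42 to 12.1 scaled CPM in the pre-IP and 19.1 to 36.2 in the IP, without overlap. Hspa14, the HSP70 with which Dnajc2 forms the ribosome-associated complex, did not pass at log2 0.13 ± 0.10. Dnajc3, an ER co-chaperone that also inhibits the kinase PERK, rose 1.69-fold, with 19.7 to 31.1 scaled CPM in the pre-IP and 32.7 to 52.3 in the IP. The ER membrane proteins Dnajb14 and Dnajc1 rose 1.63-fold and 1.57-fold. The inducible HSP70 partner Dnajb1 did not pass (log2 -0.12 ± 0.13).

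Among the J proteins that fell, Dnajc27, a small GTPase with a J domain, changed most. Its scaled CPM was 498, 425 and 444 in the EYFP pre-IP and 359.8, 407, 462 and 513 in the tau pre-IP. In the IP it was 285, 242 and 294 in the EYFP animals and 163, 217, 234 and 269 in the tau animals, all below every pre-IP library (log2 -0.87 ± 0.12, adjusted p 0.000105 by edgeR). Dnajc5, the cysteine string protein of synaptic vesicles, was 466.4 to 606 in the pre-IP and 315 to 407 in the IP (log2 -0.53 ± 0.09). Dnajc16 and Dnajc11, the latter a mitochondrial membrane protein, had log2 changes of -0.67 and -0.42 and likewise no overlap.

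Of the 6 BAG genes, 1 passed and fell, where 14.7% of all genes tested were lower. This was Bag6, which hands tail-anchored proteins to their membrane (log2 -0.47 ± 0.12), although EYFP animal H was higher in its IP. Bag3, the stress-inducible BAG protein of selective autophagy, did not pass (log2 -0.14 ± 0.22), with 11.3 to 30.5 scaled CPM in the pre-IP and 12.4 to 26.8 in the IP. None of the 5 tested small HSPs passed. Hspb1, the best known of them, was 10.4 to 20.1 scaled CPM in the pre-IP and 13.2 to 19.8 in the IP (log2 0.10 ± 0.14). The 6 members that were not tested (Dnajb7, Dnajb8, Dnajc5b, Dnajc5g, Cct8l1 and Hspb9) had at most 12 counts in any library.

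Of all genes tested, 16.3% were higher and 14.7% lower in the IP, and the counts by list stand beside these shares. By compartment, 6 of 11 ER members rose and none fell (median log2 0.65). Of 9 mitochondrial members, 5 rose and 2 fell (median 0.39). Of the 15 members known as HSF1 targets, 8 rose and none fell (median 0.44), and those that did not pass included Hspa1a, Hspa1b, Hsph1, Dnajb1, Hspb1 and Bag3. Of 4 members of clathrin uncoating and synaptic vesicles, Hspa8 and the endosomal Dnajc13 rose and Dnajc5 fell, while the auxilin gene Dnajc6 did not pass (log2 0.18 ± 0.11).

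Of 38 other genes of the pathway, 11 rose and 5 fell (median log2 0.15), beside 16.3% higher and 14.7% lower of all genes tested. All 6 subunits of prefoldin, the complex that delivers nascent actin and tubulin to TRiC, were among the 11, a grouping chosen after the values were seen. Their log2 changes were 1.11 for Vbp1, 1.10 for Pfdn4, 0.72 for Pfdn1, 0.49 for Pfdn6, 0.49 for Pfdn5 and 0.34 for Pfdn2. Of 9 HSP90 co-chaperones in the list, also grouped after the values were seen, Ppid, Chordc1 and Ptges3 rose by log2 0.80, 0.61 and 0.38. The other 6 (Ahsa1, Cdc37, Cdc37l1, Fkbp4, Fkbp5 and Stip1) did not pass, at log2 -0.14 to 0.23. Hsf1, the heat shock transcription factor, fell (log2 -0.46 ± 0.09), whereas its relative Hsf2 rose (log2 0.75 ± 0.22). Hyou1, the exchange factor for Hspa5 in the ER, fell (log2 -0.52 ± 0.13), and so did Gak, the widely expressed auxilin (log2 -0.74 ± 0.11).

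Between tau and EYFP IP libraries, the median log2 difference was 2.69 over 12 noradrenergic markers and -0.02 over the 80 tested chaperones. Single genes ran from 1.41 to 4.36 and from -1.37 to 1.29, and none passed the adjusted threshold. By animal, a mean over the markers and a median over the chaperones are given, which are unlike measures. The mean log2 IP enrichment of 12 noradrenergic markers was 4.69, 3.63, 3.55 and 1.71 in tau animals B, C, L and M, and 0.74, 0.91 and 0.63 in EYFP animals H, I and K. The median over the tested chaperones was 0.33, 0.17, 0.30 and 0.07 in B, C, L and M, and 0.12, 0.22 and 0.18 in H, I and K. With library totals and no TMM scaling it was 0.074, 0.096, 0.26 and 0.10 in B, C, L and M, and 0.055, 0.26 and 0.23 in H, I and K, so the order of the animals depended on the scaling. Hsp90aa1 was enriched by 1.88, 2.12, 2.47 and 1.94 in B, C, L and M, and by 2.52, 2.37 and 1.959 in H, I and K, with no separation of the treatments. The HSP70 median was 0.75, 0.73 and 0.27 in H, I and K, and 0.32, 0.25, 0.31 and -0.06 in B, C, L and M. Of the other marker lists, 1 of 8 astrocyte and 1 of 8 oligodendrocyte markers rose in the IP, while 2 of 8, 2 of 8 and 3 of 8 astrocyte, oligodendrocyte and microglia markers fell. The shares over all genes tested were 16.3% higher and 14.7% lower. Of 7 other-neuron and 5 endothelial markers none passed, and 1 of 4 mural, 1 of 4 ependymal and 2 of 7 immediate early genes fell. RNA concentration was lower in the IP than in the pre-IP of every animal, and its part in these enrichments was not tested.

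Within the tau animals alone, 19 members were higher and 8 lower in the IP, beside 10.4% higher and 10.3% lower of all genes (edgeR, adjusted p under 0.05). Within the EYFP animals alone, 15 were higher and 2 lower, beside 3.96% and 2.41% of all genes. Of these, 9 higher and 2 lower members were shared, which is 9 of 19 and 9 of 15 of the higher lists, and 2 of 8 and 2 of 2 of the lower lists. The share of all genes called in both treatments was not computed, so this sharing cannot be called particular to chaperones. Called in both were Hsp90aa1, Hsp90b1, Hspa4l, Hspa13, Hspd1, Cct8, Tcp1, Dnajc2 and Dnajc3 on the higher side, and Dnajc5 and Dnajc27 on the lower.

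**Figure D3:**
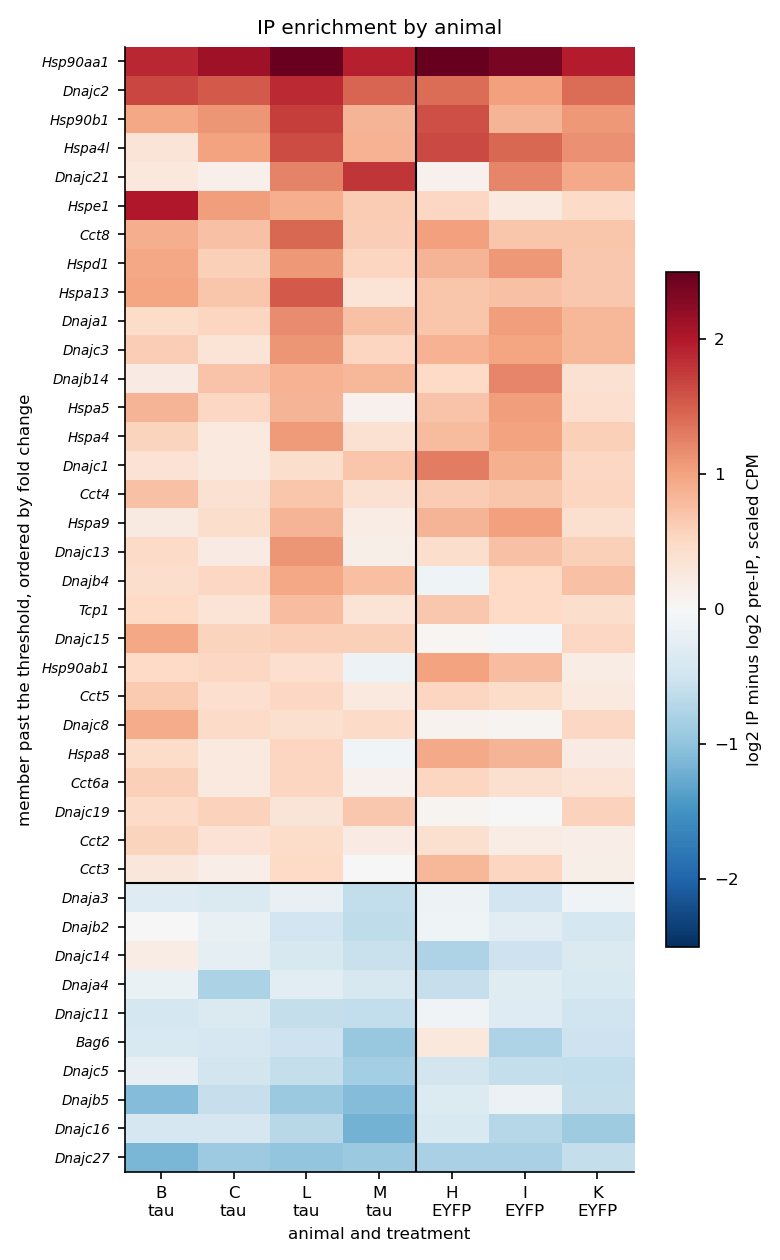
Log2 IP minus log2 pre-IP of scaled CPM (colour) for the 39 members past the threshold (rows, in order of fold change) in each animal (columns, tau left of the vertical line, EYFP right). The Hsp90aa1 row runs from 1.88 to 2.52, and Hspe1 is strongest in tau animal B at 2.00.

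Whether chaperone transcripts in the IP differed between the treatments was asked by comparing 4 tau with 3 EYFP IP libraries. No member passed (smallest edgeR adjusted p 0.318), and none of the 19472 genes tested did (0.0%). DESeq2 also called no member. At an unadjusted p under 0.05, 12 of the 80 members were reached, 8 with higher and 4 with lower values in tau, which is 15% beside 12% of all genes. Groups did not overlap for 13 members (16.25%), beside 14.5% of all genes, so that the members' shares were near the background. The median log2 difference was -0.02 over the members and -0.08 over all genes.

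Hspe1 had the largest difference of the rule's members with higher values in tau IP. Its scaled CPM was 555, 289, 238 and 189.7 in tau animals B, C, L and M and 132, 164 and 162 in EYFP animals H, I and K, a log2 difference of 1.04 ± 0.33 (unadjusted edgeR p 0.00995, adjusted 0.318). The groups did not overlap, and without animal B the log2 difference was 0.65. The IP library of animal B had the lowest RNA concentration, 0.1 ng/µL, and the lowest TMM factor, 0.852. Their part in its high values was not tested. Hspd1, the partner of Hspe1 across the shared start-site stretch, was 178, 149, 127 and 113 in tau and 115, 169 and 144 in EYFP IP libraries. These values overlapped, and the log2 difference was -0.02 ± 0.19.

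Dnajc12 encodes the co-chaperone of the aromatic amino acid hydroxylases, tyrosine hydroxylase among them. It was 147, 86.4, 80.7 and 70.2 scaled CPM in tau animals B, C, L and M and 43.7, 46.0 and 64.9 in EYFP animals H, I and K (log2 0.88 ± 0.27, edgeR adjusted p 0.318). The groups were apart, with animal B again highest. Without EYFP animal K, whose libraries held tau counts, the log2 difference was 1.06 for Hspe1 and 1.06 for Dnajc12, and without tau animal M it was 1.22 and 1.00. Dnajc15 and Dnajc19, J proteins of the mitochondrial inner membrane, had log2 differences of 0.61 ± 0.19 and 0.45 ± 0.16, and Dnajb3 had 0.93 ± 0.33 at only 2.72 to 8.86 scaled CPM.

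Among members with lower values in tau IP, Hspa12a, a divergent HSP70 of the brain, had the smallest p. It was 78.0, 86.0, 74.1 and 65.7 scaled CPM in B, C, L and M and 98.3, 124 and 102 in H, I and K (log2 -0.52 ± 0.15, edgeR adjusted p 0.318). Exons of Hspa12a overlap those of Eno4 on the opposite strand. Dnajb5, a cytosolic and nuclear J protein, was 19.5, 32, 23.3 and 24.6 in tau and 39.8, 41.7 and 33.6 in EYFP IP libraries (log2 -0.64 ± 0.20), and Hspa12b had -0.56 ± 0.24. Neither of these overlapped between treatments, whereas Hspa4l (-0.42 ± 0.18) and Dnajc3 (-0.28 ± 0.17) did. In all, 12 of the 13 HSP70 genes had negative log2 differences (median -0.27, against -0.08 over all genes), none past the threshold. Over all 80 tested members 44 were negative. Other families leaned the other way, with positive differences for 7 of 9 TRiC and 4 of 5 small HSP genes. The share of all genes with negative differences was not computed.

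No classical stress-inducible member had a difference past the threshold in this contrast, and neither had any other of the 19472 genes. On simulated data this fit recovered 14% of changes of log2 1, so changes of that size could be missed. Of the 15 HSF1 targets, Hspe1 (log2 1.04) and Hspa4l (-0.42) reached an unadjusted edgeR p under 0.05, beside 12% of all genes. Hsp90aa1 averaged 876 ± 213 (SD, n = 4) scaled CPM in tau and 919 ± 242 (SD, n = 3) in EYFP IP libraries. Hspa1a had a log2 difference of -0.25 ± 0.40, Hspa1b -0.34 ± 0.38, Dnajb1 0.27 ± 0.20, Hspb1 0.01 ± 0.20, Hsph1 -0.05 ± 0.15 and Bag3 -0.27 ± 0.26. The more abundant Hspa8, Hsp90ab1, Hspa5, Hspa9 and Hsp90b1 had -0.21 ± 0.15, -0.13 ± 0.18, -0.12 ± 0.25, -0.27 ± 0.16 and -0.14 ± 0.19. The sign of Hsp90aa1, Hspa5, Hsph1, Hspd1, Hspb1, Bag3 and Tcp1 turned when single animals were left out. Of the 38 other pathway genes, 9 had higher and 1 had lower values in tau at an unadjusted edgeR p under 0.05, beside 12% of all genes. All had adjusted p of 0.318 or more. The 6 prefoldin subunits, a grouping chosen after the values were seen, were among the 9, at log2 0.38 to 1.24.

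Cell type markers moved in the same contrast. All 12 noradrenergic markers had higher values in tau IP, with sums of 1087 to 8412 scaled CPM against 540.5 to 635.7 in EYFP IP, and none passed the adjusted threshold. All 8 astrocyte, 8 oligodendrocyte, 8 microglia and 7 other-neuron markers had lower values in tau IP. The oligodendrocyte sum was 4292 to 10530 in tau and 8470 to 13050 in EYFP IP libraries, and the astrocyte sum 586.7 to 1093 and 969.1 to 1303. Lower values were also found for 5 of 5 endothelial, 3 of 4 mural and 4 of 4 ependymal markers. Of the immediate early genes, 7 of 7 had lower values in tau IP, with sums of 78.9 to 158 against 156.5 to 183. The part of these shifts in the differences of single chaperones was not tested.

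**Figure D4:**
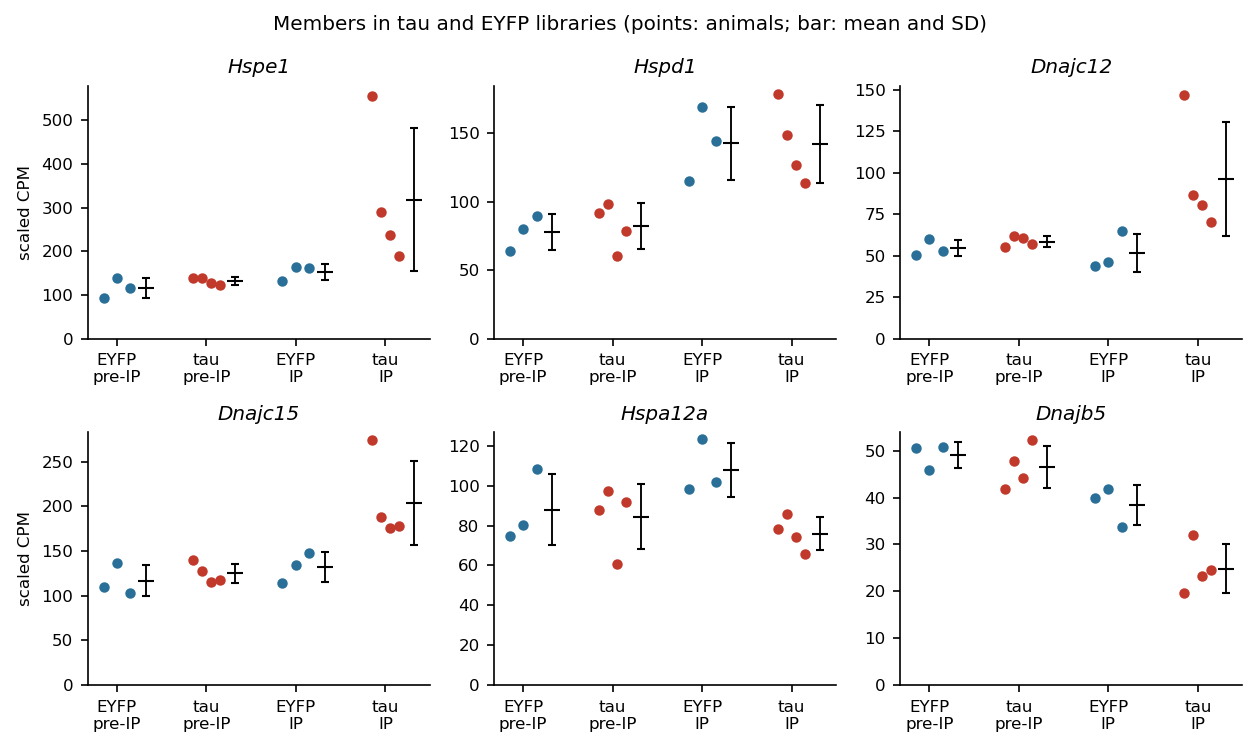
Scaled CPM (vertical axis from 0) of 6 members in the 4 groups, with each point an animal and the bar its group mean and SD (n = 3 EYFP, n = 4 tau). In the IP, Hspe1, Dnajc12 and Dnajc15 are higher and Hspa12a and Dnajb5 lower in tau without overlap, Hspd1 overlaps, and in the pre-IP all 6 overlap.

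In total homogenate, 4 tau and 3 EYFP pre-IP libraries were compared. No member passed and none of the 19197 genes did (0.0%, edgeR; DESeq2 called no member either), and 1 member (1.25%) reached an unadjusted p under 0.05, beside 2.84% of all genes. That member was Dnajc21, a J protein of large ribosomal subunit assembly. It was 11.9, 14.7, 13.5 and 9.59 scaled CPM in tau animals B, C, L and M and 15.6, 17.3 and 17.2 in EYFP animals H, I and K (log2 -0.43 ± 0.17, edgeR adjusted p 1.00). The genes that stood out in the IP were close together here: Hspe1 was 139, 139, 127 and 123 in tau and 91.9, 139 and 116 in EYFP, and Dnajc12 was 54.9 to 61.5 in tau and 50.6 to 59.7 in EYFP. The next smallest p values belonged to Bag1 (log2 -0.34 ± 0.19), Hspa2 (0.27 ± 0.19), Dnajc25 (-0.37 ± 0.26) and Hspe1 (0.19 ± 0.14). Each of these moved with single animals: Bag1 to -0.21 without B, Dnajc25 to -0.15 without H, Hspe1 to 0.052 without H and 0.34 without I, and Hspa2 to 0.16 without C or I and 0.49 without K. Hsp90aa1 had 0.14 ± 0.23, Hspa8 0.13 ± 0.21, Hspa5 -0.02 ± 0.21 and Tcp1 0.05 ± 0.14.

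Whether the tau difference depended on the fraction was tested as an interaction over all 14 libraries. No member passed (smallest edgeR adjusted p among members 0.78) and no gene of 20495 did (0.0%; DESeq2 called no member either). At an unadjusted p under 0.05 there were 4 members (5%), beside 5.97% of all genes. They were Dnajc12 (log2 0.79 ± 0.30), Hspe1 (0.87 ± 0.38) and Dnajc15 (0.53 ± 0.24), with a more positive tau difference in the IP than in the pre-IP, and Dnajb5 (-0.55 ± 0.23), with a more negative one. Without animal B the interaction was 0.46 for Dnajc12 and 0.45 for Hspe1. Hspa2, Hspa12b and Hspa12a followed on the negative side at -0.70 ± 0.35, -0.64 ± 0.33 and -0.45 ± 0.25, the last at -0.69 without animal K. Hsp90aa1 had an interaction of -0.21 ± 0.37.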

How the data were processed

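The authors deposited a table of counts per gene for 14 libraries, with gene lengths and a sample sheet holding RNA integrity (RIN, a score), RNA concentration and the percent of reads past quality cutoffs, per the file headers. Libraries were made from poly(A) RNA with SMART-Seq v4 and Nextera XT, which do not mark strand, per the labels' protocols. FastQC, Trim Galore, STAR and featureCounts with GRCm38/mm10 are named in the submitters' processing notes, and versions and counting options are not given in the sources used here. Animals and groups came from the sample titles.

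Counts were analysed as deposited with edgeR 4.0.16 in R 4.3.3 (filterByExpr, TMM, glmQLFit, glmQLFTest), with Benjamini-Hochberg adjustment over all genes tested in each of 4 comparisons and a threshold of 0.05. The IP against pre-IP fit had treatment as an added term. A standard error is the log2 change divided by the root of F. Enrichment within an animal used a prior count of 2 and TMM scaling, with a prior count of 0.5 and unscaled library totals as alternatives. Depth was 41843489 to 65664551 counts per library. The floor of 3 counts covers counting error only, while SE and SD include the spread between animals.

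Named members were, per comparison, up to 10 per direction with adjusted p under 0.05 and no overlap between groups, or else the 5 with the smallest p, plus 14 fixed members. Members singled out beyond this rule were chosen after their values were seen, such as Hspe1, Bag6, Hspa14, Cct6b and Cct7 in IP against pre-IP. So were Hsf1, Hsf2, Hyou1 and Gak among the other pathway genes. The members and lists were chosen with earlier results of these data known. Of 86 members, 32 have exons that overlap another gene's. Replicates of a group differed beyond counting noise (lowest chi-square per degree of freedom 24.6). Same-letter libraries are from 1 animal, and their deviations from the group means correlated at a mean r of 0.25 (0.15 to 0.40 over 7 animals). Alternatives were DESeq2 1.42.0, its size factors, no filter, sex label or library-number range as covariate, the animal block, each treatment alone and leaving out each animal. On simulated data with 200 changed genes, the tau IP fit over 19472 genes recovered 14% of changes of log2 1 and 58% of log2 2, and the IP against pre-IP fit over 18792 genes recovered 66% and 85%.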

Additional observations from a re-analysis of the deposited data

Results flagged for a closer look

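In groups of 4 animals, a sample far from the other 3 was looked for among the named members by Dixon's 95% criterion for the gap to the nearest animal over the range. Of 82 groups tested 5 were past it, and chance gives about 1 in 20. Bag1 in the tau IP was 161 scaled CPM in animal C and 413 to 463 in the other animals. Dnajc15 in the tau IP was 274 in animal B and 175 to 188 in the others. Hsp90b1 in the tau IP was 112.5 in animal M and 162 to 172 in the others. Hspa9 in the tau pre-IP was 92.5 in animal L and 129 to 137 in the others. Hspb7 in the tau pre-IP was 0.371 in animal B and 0.301 to 0.304 in the others.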

How the results depend on the processing

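The number of members past the threshold in IP against pre-IP was 39 and stayed within 35 to 41 when each animal was left out, with the low value without animal C or L. It was 36 without animal I, 38 without K and 37 without M. With the animal as a replicate block it was 41, and the block added 2 members and removed none. It was 17 in EYFP animals only, where fewer libraries were fitted. The median enrichment of the members within an animal moved, with unscaled library totals, from 0.33 to 0.074 in B, 0.12 to 0.055 in H and 0.18 to 0.23 in K. In the other 3 comparisons the count was 0 under every alternative run.

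Of the log2 values of named members, 360 of 375 in IP against pre-IP kept their direction and call, 14 kept the direction and lost the call, and 1 turned (Bag3 in EYFP animals only, 0.085). In tau animals only, Hspa8, Hspa5, Hspa9, Hsp90ab1 and Dnajc1 lost the call. In EYFP animals only, Hspa8, Hsp90ab1, Dnajb14, Dnajc11 and Dnajc16 lost it. The remaining losses were of Hspa8 with animal C, H, I or L left out. In the tau IP contrast 269 of 288 kept their direction, in the tau pre-IP contrast 264 of 288 and in the interaction 304 of 312, none of which concerned a called value. In the tau IP contrast, Hspd1 turned to 0.012 and Tcp1 to 0.024 with DESeq2 size factors and with DESeq2, Tcp1 to 0.0062 with the library-number range as covariate, and Hspb1 to -0.0068 with no filter and -0.008086 with that covariate. In the tau pre-IP, Hspa5 turned to 0.023 with the sex label as covariate and Hsph1 to 0.019 with the library-number range. The Hsp90b1 interaction turned to 0.0016 with that range. The cause of these turns was not tested.

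Leaving out each animal gave these ranges in the tau IP: Hspa5 -0.35 to 0.037, Hsp90aa1 -0.25 to 0.14, Hsph1 -0.12 to 0.016, Hspd1 -0.18 to 0.11, Hspb1 -0.14 to 0.13, Bag3 -0.42 to 0.032 and Tcp1 -0.047 to 0.034. In the tau pre-IP they were Hspa8 -0.030 to 0.43, Hspa1a -0.078 to 0.49, Hspa1b -0.040 to 0.24, Hspa5 -0.14 to 0.20, Hspa9 -0.067 to 0.26, Hsp90aa1 -0.044 to 0.31, Hsp90b1 -0.25 to 0.046, Hsph1 -0.13 to 0.073, Hspd1 -0.052 to 0.19, Dnajb1 -0.12 to 0.10, Hspb1 -0.043 to 0.44, Bag3 -0.12 to 0.73 and Tcp1 -0.021 to 0.14. In the interaction they were Hspa5 -0.31 to 0.029, Hsp90b1 -0.24 to 0.19, Hsph1 -0.12 to 0.0087, Hspd1 -0.23 to 0.0064 and Hspb1 -0.31 to 0.052.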
